A study of Homo sapiens with 5 samples.

Results

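The region described is the human major histocompatibility complex (MHC) with its flanks, taken as chromosome 6 from position 28500000 to 33400000 in hg19. Its members were chosen by position alone, as every deposited peak summit that falls in these 4.9 Mb, and they number 652 of 209263 summits in all lists of the study. The study mapped H3K27ac, the acetylation of histone H3 at lysine 27 that marks active promoters and enhancers, and KAT7, a histone acetyltransferase also called HBO1, by chromatin immunoprecipitation and sequencing in HCT116, a human colorectal carcinoma cell line. Cells had received siRNA for 48 h. There were 5 libraries: H3K27ac after siRNA against ENO1-IT1, a noncoding RNA; H3K27ac after control siRNA; KAT7 after ENO1-IT1 siRNA; KAT7 after control siRNA; and an input library whose siRNA the labels do not give.

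With 1 library in each group, no difference below has a replicate check and no p-value is given. Intervals are exact 95% intervals that cover counting error of summits only. They take summits as independent, although summits cluster and many sites recur between lists. The lists hold no RNA or read counts, so neither the loss of ENO1-IT1 nor the sequencing depth can be read from them, and peak names start with the same letters in knockdown and control lists. The complete lists held 31839 H3K27ac summits after knockdown and 29429 after control siRNA, 24611 KAT7 summits after knockdown and 122439 after control siRNA, and 945 input summits. Of these, the MHC held 226 knockdown and 195 control H3K27ac summits, 54 knockdown and 177 control KAT7 summits, and no input summit.

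The MHC holds 3 classes of genes. Class I genes encode the heavy chains that show peptides from inside the cell to cytotoxic T cells, and most nucleated cells express them. Class II genes encode the paired chains that show peptides taken up from outside to helper T cells. Their expression is largely restricted to antigen-presenting cells unless interferon gamma induces it through the coactivator CIITA. Among the class II genes lie TAP1 and TAP2, the transporter that loads peptides for class I, PSMB8 and PSMB9, subunits of the immunoproteasome, and BRD2, a widely expressed bromodomain protein that binds acetylated histones. The class III stretch between them holds complement, heat shock and many housekeeping genes.

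The class II part was taken as 32.4 to 33.1 Mb, and the class I/III part as everything from the start of the region to 32.4 Mb. The last 0.3 Mb, after class II, was counted apart. In the RefSeq gene order of GRCh38.p14, the class II stretch that ends with HLA-DPB1 holds 18 protein-coding genes. The class I/III stretch before it, counted from TRIM27 to BTNL2, holds 131, and any gene of the region before TRIM27 was not counted. The stretch from COL11A2 to CUTA holds 18. The summits are in hg19, so no summit was assigned to a gene by distance. A gene named beside a summit below is placed there from general knowledge of the hg19 map.

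The promoters of 6 genes are printed as examples, because their neighbourhoods lie on both sides of the H3K27ac pattern described below. The genes were picked with that pattern known, so these promoters cannot show that sequence follows it. Each sequence is the 250 bases before the gene's first listed start, from RefSeq on GRCh38.p14, 5′ to 3′. BRD2 lies at chr6:32968344-32968593 (plus strand), PSMB9 at chr6:32853942-32854191 (plus strand), TAP1 at chr6:32853705-32853954 (minus strand), HLA-C at chr6:31272093-31272342 (minus strand), HLA-DRB1 at chr6:32589849-32590098 (minus strand) and HLA-DQB1 at chr6:32666658-32666907 (minus strand). Capitals mark GGGCGG, the GC box core, and CCAAT, the CCAAT box core, on either strand.
BRD2: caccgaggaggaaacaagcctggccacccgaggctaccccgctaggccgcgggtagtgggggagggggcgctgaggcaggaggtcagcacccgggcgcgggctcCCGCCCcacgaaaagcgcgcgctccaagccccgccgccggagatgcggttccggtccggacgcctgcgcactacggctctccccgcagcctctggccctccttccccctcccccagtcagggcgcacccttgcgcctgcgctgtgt
PSMB9: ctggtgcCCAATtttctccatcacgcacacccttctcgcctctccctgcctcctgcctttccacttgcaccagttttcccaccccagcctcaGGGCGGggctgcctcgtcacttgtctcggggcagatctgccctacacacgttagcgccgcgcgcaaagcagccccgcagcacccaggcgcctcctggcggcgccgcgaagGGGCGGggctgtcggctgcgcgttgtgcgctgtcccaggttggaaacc
TAP1: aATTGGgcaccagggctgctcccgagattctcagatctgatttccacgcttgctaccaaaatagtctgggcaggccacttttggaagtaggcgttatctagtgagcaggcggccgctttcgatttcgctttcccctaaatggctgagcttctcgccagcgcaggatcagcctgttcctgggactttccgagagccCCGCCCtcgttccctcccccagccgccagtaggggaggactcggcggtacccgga
HLA-C: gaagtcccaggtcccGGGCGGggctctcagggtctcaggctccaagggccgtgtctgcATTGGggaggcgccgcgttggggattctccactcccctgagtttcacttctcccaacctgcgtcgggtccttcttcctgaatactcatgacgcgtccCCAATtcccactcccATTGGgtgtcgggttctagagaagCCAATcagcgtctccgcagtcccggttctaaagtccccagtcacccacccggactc
HLA-DRB1: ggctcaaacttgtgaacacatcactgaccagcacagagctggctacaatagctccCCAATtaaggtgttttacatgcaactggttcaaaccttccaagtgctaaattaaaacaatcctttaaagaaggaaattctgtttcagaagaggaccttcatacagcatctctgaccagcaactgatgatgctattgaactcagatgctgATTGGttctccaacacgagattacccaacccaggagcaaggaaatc
HLA-DQB1: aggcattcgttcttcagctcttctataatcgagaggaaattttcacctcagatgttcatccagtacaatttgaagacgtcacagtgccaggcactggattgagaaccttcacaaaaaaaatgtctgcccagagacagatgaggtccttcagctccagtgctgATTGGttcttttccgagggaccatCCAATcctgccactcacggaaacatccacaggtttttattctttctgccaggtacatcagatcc
The TAP1 and PSMB9 windows face away from each other and share their ends, as the pair is transcribed head to head. The BRD2 window printed has a GC content of 74.0%, and those of the other 3 listed BRD2 starts have 62.4, 47.6 and 66.4%, against 42.8% for HLA-DRB1 and 45.6% for HLA-DQB1. Windows not printed were also low for HLA-DMB (44.8%) and HLA-DPB1 (42.0%). In gene order both lie beyond TAP1, toward the end of class II that held H3K27ac summits.

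Among all listed promoters of the class II genes, 8 of 23 (34.8%, interval 16.4 to 57.3%) held GGGCGG. The share was 47.8% (77 of 161) for the class I/III genes and 42.6% for all 35116 promoters, both inside that interval. The class II share pools unlike genes. Windows of BRD2, PSMB9, TAP1 and TAP2 held GGGCGG, whereas those of HLA-DRB1, HLA-DQB1, HLA-DPB1 and HLA-DMB did not. Other class II genes were not examined singly. CCAAT stood in 13 of 23 class II promoters (56.5%, interval 34.5 to 76.8%), 55 of 161 class I/III promoters (34.2%) and 32.0% of all. The median GC content was 51.2% in class II promoters, 59.2% in class I/III promoters and 58.0% in all. A gene can have several listed promoters that overlap, and the match of letters says nothing on whether a factor binds there.

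H3K27ac summits were sparser in the class II part than in the class I/III part taken as a whole, in both conditions. The class II part held 10 summits after knockdown and 7 after control siRNA. That is 14.3 per Mb (interval 6.85 to 26.3) after knockdown and 10.0 per Mb (4.02 to 20.6) after control siRNA. The class I/III part held 189 after knockdown and 158 after control siRNA, which gives 48.5 per Mb (41.8 to 55.9) after knockdown and 40.5 per Mb (34.4 to 47.3) after control siRNA. The ratio of class II to class I/III density was 0.295 (0.139 to 0.554) after knockdown and 0.247 (0.0976 to 0.521) after control siRNA, so the deficit was of similar size in both libraries.

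The MHC as a whole was rich in H3K27ac. Its density was 46.1 summits per Mb after knockdown, against 10.5 per Mb in the rest of the genome, a ratio of 4.38 (3.83 to 5.00). After control siRNA it was 39.8 per Mb, against 9.73, a ratio of 4.09 (3.53 to 4.71). Chromosome 19, another gene-dense part of the genome, had 34.6 per Mb after knockdown and 32.6 after control siRNA. The interval of the class II part alone included the density of the genome's rest in both conditions. Extended class I (28.5 to 29.5 Mb) was also low, with 25 summits per Mb (16.2 to 36.9) after knockdown and 16 per Mb (9.15 to 26.0) after control siRNA, and its intervals overlap those of class II. Class I proper (29.5 to 31.5 Mb) had 54.5 per Mb after knockdown and 42.5 after control siRNA. Class III had 61.1 after knockdown and 63.3 after control siRNA. The short stretch after class II was the densest, with 27 summits after knockdown and 30 after control siRNA.

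**Figure D1:**
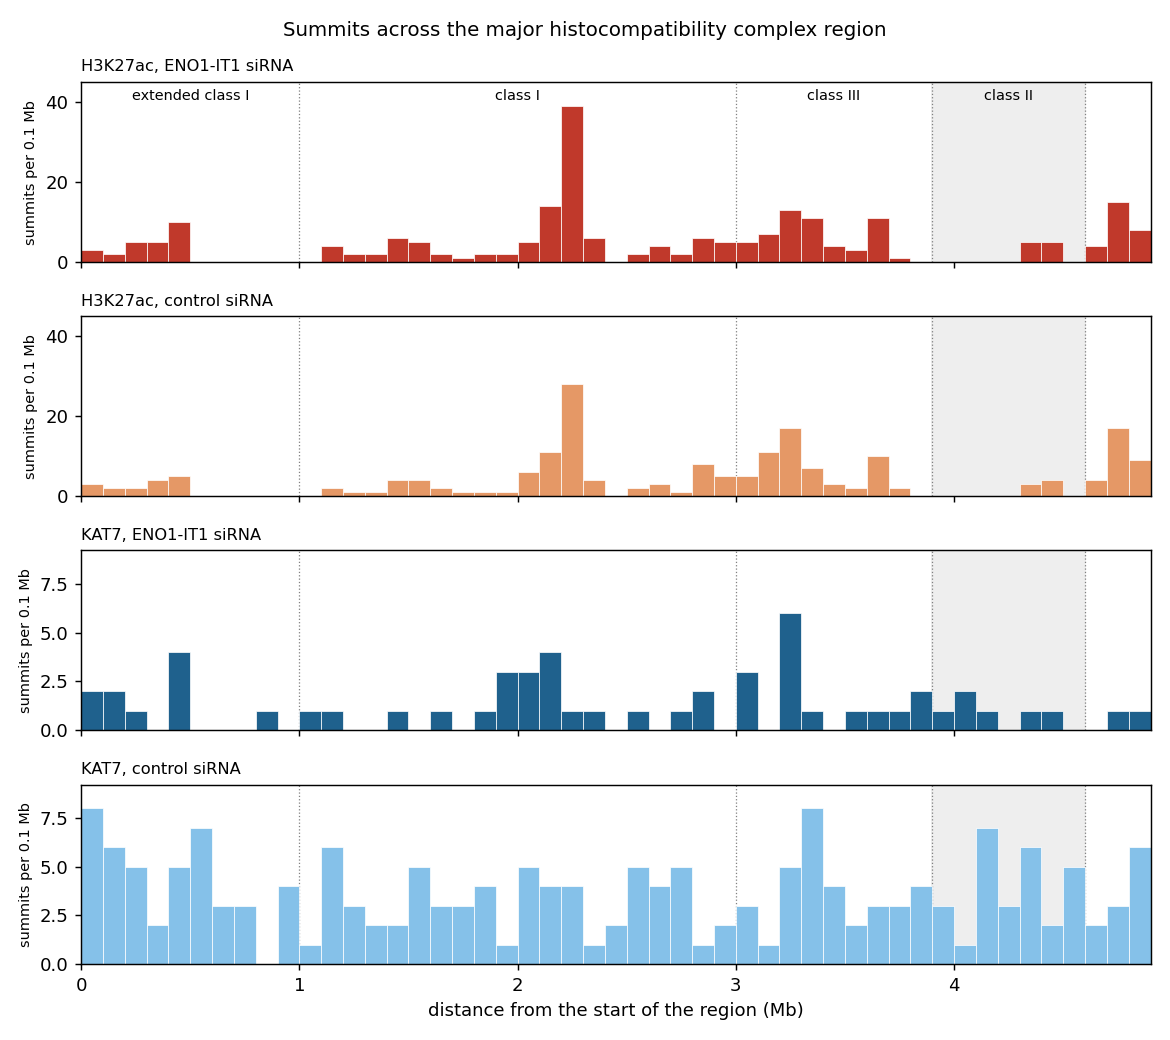
Number of summits in each 0.1 Mb window (y axis, shared between the 2 lists of a mark) against distance from the start of the region (x axis, Mb), 1 panel per list, with the class II part shaded. H3K27ac is absent from the first part of class II in both lists and reaches 39 summits after knockdown and 28 after control siRNA in 1 class I window, while KAT7 after control siRNA is spread over nearly all windows.

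Within class II the H3K27ac summits stood only at its far end. The first of them lay 405.8 kb into it, and the last 294.2 kb held all 10 knockdown and all 7 control summits. This boundary was set by the summits themselves, so the empty stretch is a description. The empty stretch began before class II: no H3K27ac summit of either list lay between 32223787 and 32805814, a gap of 582.0 kb. General knowledge of the hg19 map places TSBP1, BTNL2 and the class II genes of the HLA-DR and HLA-DQ groups up to HLA-DOB in this gap, with HLA-DRB1 and HLA-DQB1 among them. The longest gap, 643.5 kb from 28956840 to 29600306, holds a cluster of olfactory receptor genes on that map. Gaps at least as long are common elsewhere, with 967 as long as the class II gap and 856 as long as the olfactory receptor gap in the genome.

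Most class II summits that did occur stood at the antigen-processing genes and at BRD2. A further site, at 32862618 (score 9.94) after knockdown and 32862799 (3.96) after control siRNA, lay between these, and the last lay between HLA-DOA and HLA-DPA1. At TAP2, knockdown cells had a summit at 32806350 with a score of 19.6 and control cells one at 32805814 with a score of 3.54, 536 bp apart. At the TAP1 and PSMB9 pair, knockdown cells had 3 weak summits, at 32819740 (score 5.94), 32821305 (6.54) and 32822188 (4.23), and control cells had 1, at 32821710 (13.2). The score is the authors' −log10 p or q value of the peak, and its scale differs between lists. It is used here to rank summits within a list. Where it serves below as a fixed cut-off, the cut-off need not be equally strict in each list. At BRD2, the knockdown summit at 32938423 (score 79.1) ranked 2 among the knockdown members, and the control summit at 32937334 (score 58.4) ranked 2 among the control members. These lay 1089 bp apart, and so did not count as shared, while both lists put a leading summit of the region at this gene. No class II summit of either H3K27ac list lay more than 2000 bp from a summit of the other.

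**Figure D2:**
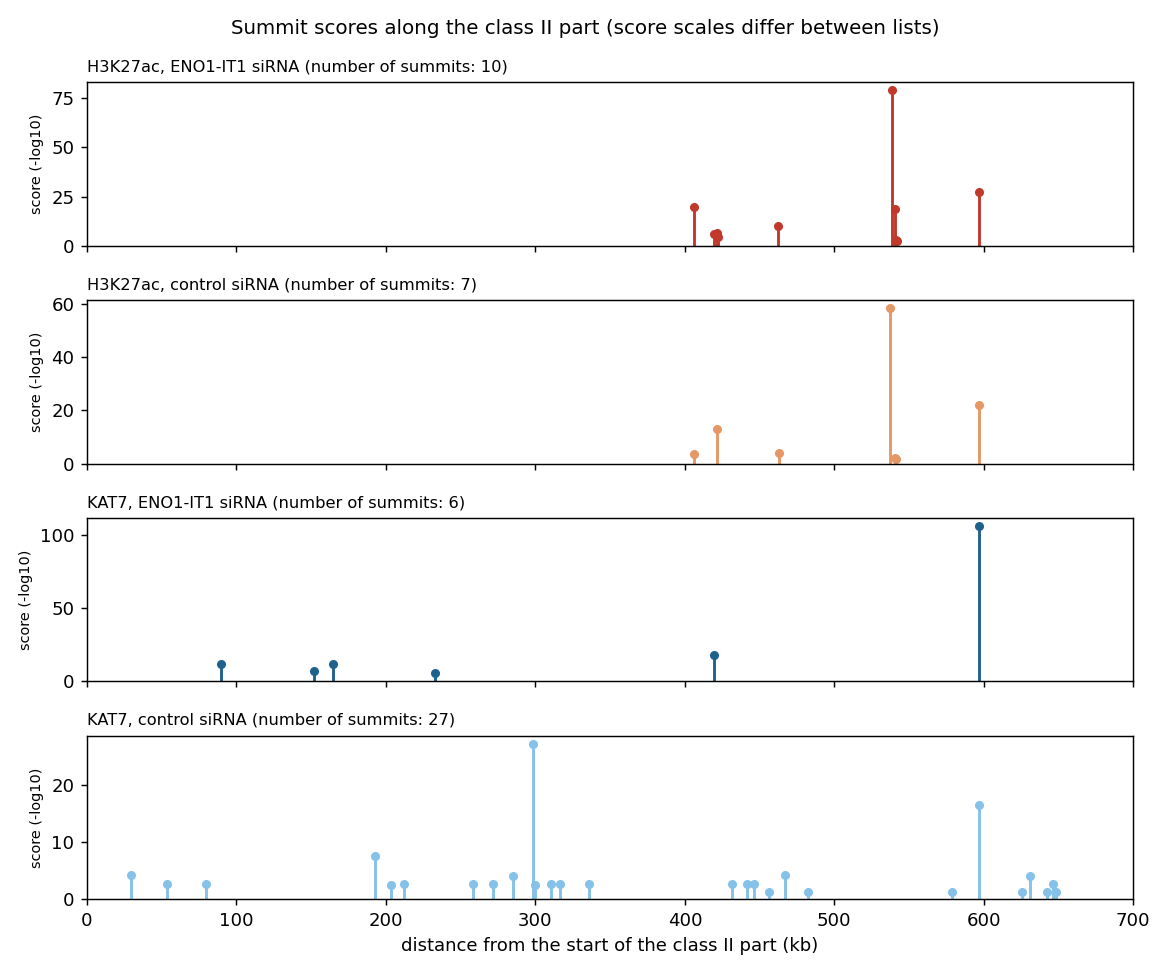
Score of each summit (y axis, −log10, own scale in each panel) against distance from the start of the class II part (x axis, kb), 1 panel per list. Both H3K27ac lists (10 summits after knockdown, 7 after control siRNA) start beyond 400 kb, whereas KAT7 summits (6 after knockdown, 27 after control siRNA) also lie in the empty first stretch.

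For KAT7, a deficit in class II was not detectable at these counts, and the difference between the marks was not tested. The class II part held 6 KAT7 summits after knockdown, 8.57 per Mb, against 11.8 per Mb in class I/III, a ratio of 0.727 (0.254 to 1.71). After control siRNA it held 27, or 38.6 per Mb, against 35.6 per Mb in class I/III, a ratio of 1.08 (0.689 to 1.64). Both intervals include equal density, and the knockdown interval, which rests on 6 summits, also includes the H3K27ac ratio of 0.295. At a score of at least 10 in every list the knockdown ratio was 1.39 (0.339 to 4.32), on the other side of equality. In the 405.8 kb without H3K27ac there were 4 KAT7 summits after knockdown and 14 after control siRNA. The highest-scoring control KAT7 summit of the region, at 32698114 (score 27.2), lay here, between HLA-DQB1 and HLA-DQA2 on the hg19 map. Its nearest knockdown KAT7 summit was 65383 bp away and its nearest control H3K27ac summit 107700 bp away. The highest knockdown summits of KAT7 in the same stretch stood at 32489577 (11.6) and 32564580 (12.04), near the HLA-DRB5 and HLA-DRB1 genes, whose near-identical copies and many alleles make read placement uncertain.

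**Figure D3:**
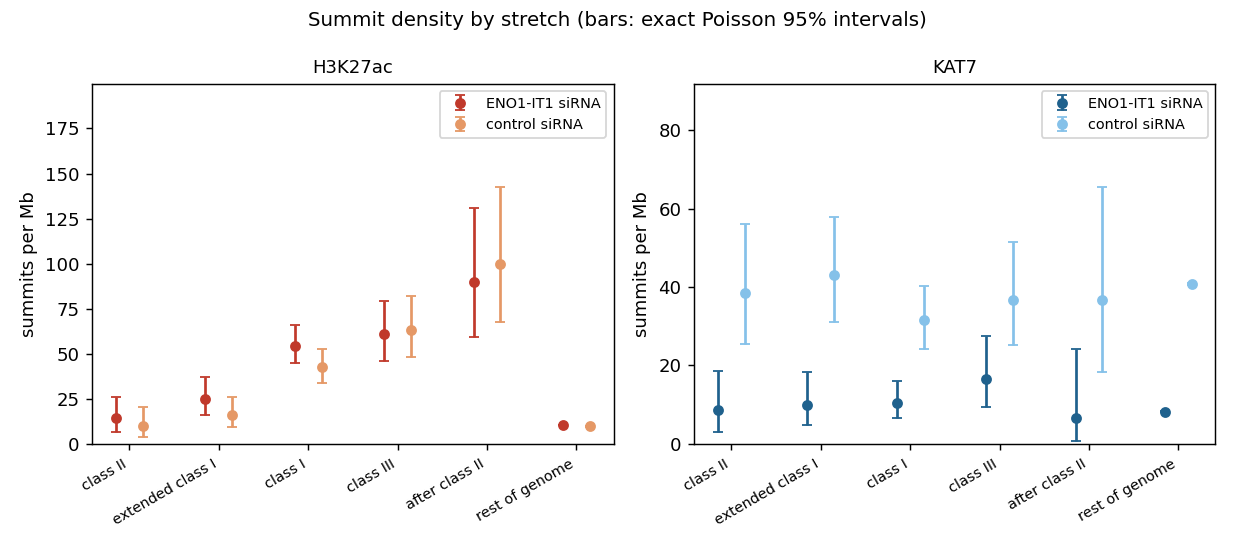
Summits per Mb (y axis, points) in each stretch and in the rest of the genome (x axis), with exact Poisson 95% intervals as bars, H3K27ac left and KAT7 right. Among the 5 stretches H3K27ac is lowest in class II (14.3 after knockdown, 10.0 after control siRNA) and KAT7 after control siRNA stays between 31.5 and 43.0 in every stretch.

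Over the region, the ratio of knockdown to control H3K27ac summits was 1.16 (0.953 to 1.41), against 1.08 (1.06 to 1.10) in the rest of the genome. At a score of at least 3 it was 1.26 (1.03 to 1.56), from 211 and 167 summits. That interval lies above equal counts but ignores that most summits have a counterpart in the other list, so it is no test. The rest of the genome also had more after knockdown at that score, 29098 against 24573 after control siRNA. Whether the MHC differed from it was not tested. At a score of at least 10 the ratio in the MHC was 1.24 (0.912 to 1.68), against 1.39 in the rest of the genome. Of the 49 windows of 0.1 Mb, 21 had more H3K27ac summits after knockdown, 7 had fewer and 21 had equal numbers. The equal windows include the 13 with no H3K27ac summit in either list. For KAT7 the ratio was 0.305 (0.221 to 0.416) in the MHC and 0.201 (0.198 to 0.204) in the rest of the genome. Of the windows, 40 had fewer KAT7 summits after knockdown, where the whole KAT7 list was also shorter, with 24611 against 122439. Windows of the rest of the genome were not counted for either mark. The direction of the KAT7 ratio turned when low scores were left out: at a score of at least 10 the MHC held 21 summits after knockdown and 11 after control siRNA, a ratio of 1.91 (0.880 to 4.38), against 2.73 in the rest of the genome. At a score of at least 3 the ratio in the MHC was 1.16 (0.759 to 1.78). The rest of the genome still had fewer at that score, 23396 after knockdown against 34616 after control siRNA. With both lists cut to equal length, which makes the whole lists equal by construction, the ratio in the MHC was 1.59 (1.02 to 2.52). For either mark a fixed score need not cut the knockdown and control lists alike, because score scales differ between lists. Of the 177 control KAT7 summits, 122 (68.9%) carried 1 of only 2 score values, 2.68 and 1.31, as did 64.2% of the whole list.

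The KAT7 density of the MHC relative to the rest of the genome was 1.35 (1.01 to 1.76) after knockdown, at 11.02 against 8.17 per Mb. After control siRNA it was 0.888 (0.762 to 1.03), at 36.1 against 40.7 per Mb, but at a score of at least 10 it turned to 2.01 (1.001 to 3.60), from 11 summits. Among the 13 windows without H3K27ac in either list, 6 held a knockdown KAT7 summit and 12 a control KAT7 summit. The knockdown KAT7 density was 6.15 per Mb in these windows (2.66 to 12.1), against 12.8 in windows with H3K27ac (9.35 to 17.0). The control KAT7 density was 33.1 per Mb (23.9 to 44.6), against 37.2 (31.2 to 44.1).

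Most H3K27ac summits of the MHC had a counterpart in the other condition within 500 bp. After knockdown 137 of 226 did (60.6%, interval 53.9 to 67.0%), against 64.3% of the whole knockdown list. After control siRNA 136 of 195 did (69.7%, 62.8 to 76.1%), against 71.9% of the whole control list. The MHC thus lay near the background of each list. In class II the counts were 6 of 10 after knockdown and 5 of 7 after control siRNA. Most of the rest missed by a short distance: only 36 of 226 knockdown summits (15.9%, whole list 18.9%) and 5 of 195 control summits (2.56%, whole list 6.54%) had no counterpart within 2000 bp. The 36 had scores of at most 8.74. The 5 highest knockdown summits without a counterpart all lay 541 to 1217 bp from a control summit. They included the region's highest, at 30737980 (score 83.0), the BRD2 summit above, and 30851472 (38.0) at DDR1, a collagen receptor, whose control counterpart was at 30852262 (36.3). Of the 5 highest control summits without a counterpart, only 31703773 (25.5) lay farther off, 3449 bp from a knockdown summit.

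For KAT7, 13 of 54 knockdown summits (24.1%, 13.5 to 37.6%) had a control KAT7 counterpart, against 32.2% of the whole list. Of the control summits 12 of 177 did (6.78%, 3.55 to 11.5%), against 6.62%. In class II it was 1 of 6 after knockdown and 1 of 27 after control siRNA, the site at 32996821. Both marks were then compared within a condition. After knockdown, 26 of 54 KAT7 summits (48.1%, 34.3 to 62.2%) had an H3K27ac summit within 500 bp, against 19.0% of the whole knockdown KAT7 list. After control siRNA it was 10 of 177 (5.65%, 2.74 to 10.1%), against 3.67%. The knockdown share exceeded that of its list at 250 bp (29.6%, 18.0 to 43.6%, against 16.4%) and 1000 bp (51.9%, 37.8 to 65.7%, against 21.0%) as well. At 100 bp it was 20.4% (10.6 to 33.5%), an interval that includes the 12.4% of the list. H3K27ac was itself 4.38 times as dense in the MHC as elsewhere after knockdown, and the part of that density in the share was not tested.

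Seen from H3K27ac, 23 of 226 knockdown summits (10.2%, 6.56 to 14.9%) had a KAT7 summit within 500 bp, against 14.3% of the whole list. After control siRNA it was 10 of 195 (5.13%, 2.49 to 9.23%), against 14.8%. The control share was below that of its list at every distance tried, with 2.56 against 7.14% at 50 bp and 10.8 against 19.5% at 1000 bp. Of knockdown KAT7 summits with H3K27ac, 11 of 26 recurred in the control KAT7 list (42.3%, whole list 70.8%), and of those without, 2 of 28 (7.14%, whole list 23.1%). Among control KAT7 summits, 8 of 10 with H3K27ac recurred after knockdown (80.0%, whole list 68.8%), and 4 of 167 without did (2.40%, whole list 4.26%), both near the background of the list.

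**Figure D4:**
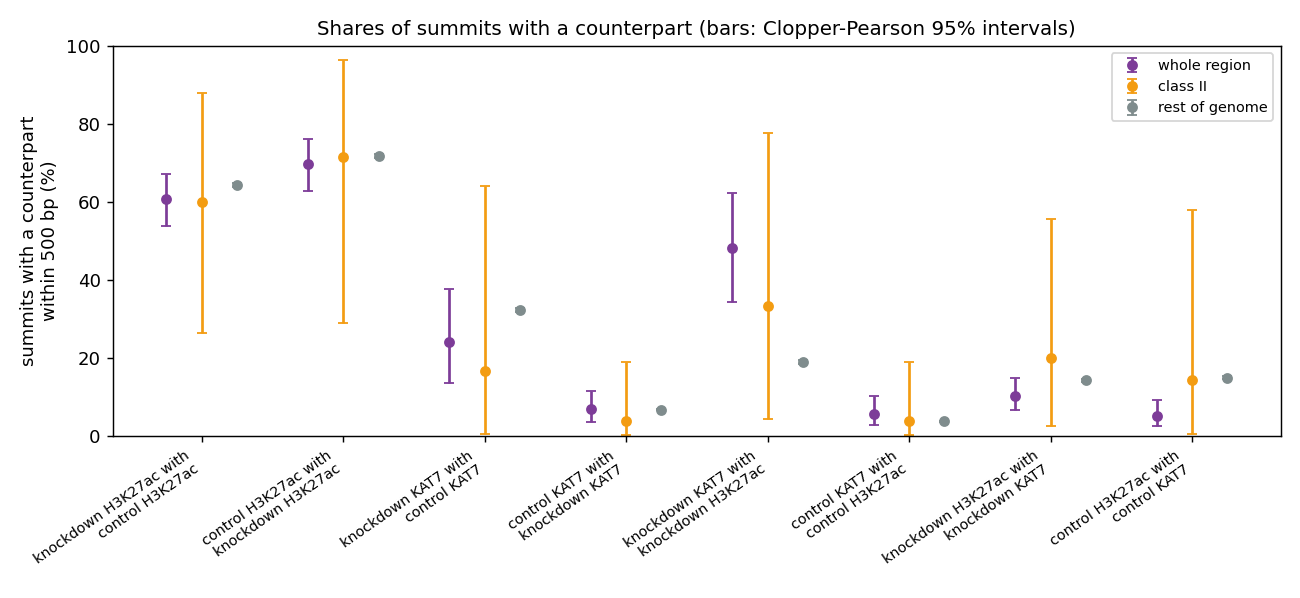
Share of summits with a counterpart within 500 bp (y axis, %) for each pair of lists (x axis), in the whole region, its class II part and the rest of the genome, with Clopper-Pearson 95% intervals. Knockdown KAT7 with H3K27ac stands at 48.1% in the region, and control H3K27ac with KAT7 at 5.13%.

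Just 2 sites of the region lay within 50 bp in all 4 immunoprecipitated lists. The first, at 31357714 between HLA-B and MICA, had H3K27ac scores of 56.9 after knockdown and 84.7 after control siRNA and KAT7 scores of 142 after knockdown and 22.8 after control siRNA. The second, at 32996822 between HLA-DOA and HLA-DPA1, had H3K27ac scores of 27.3 after knockdown and 22.0 after control siRNA and KAT7 scores of 106 after knockdown and 16.4 after control siRNA. They were the highest knockdown KAT7 summits of the region. Such sites made up 1.03% (0.124 to 3.66%) of the control H3K27ac summits of the MHC, against 4.71% of the whole list. The input summit nearest to the second lay 4119513 bp away.

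KAT7 and H3K27ac summits within 50 bp of each other numbered 10 after knockdown and 5 after control siRNA. That was 18.5% of knockdown KAT7 summits (9.25 to 31.4%, whole list 11.1%) and 2.82% of control KAT7 summits (0.923 to 6.47%, whole list 1.72%). Both intervals include the share of the whole list. At 30348416 the knockdown KAT7 summit (score 35.1) coincided with a knockdown H3K27ac summit (8.25). The control KAT7 list had a summit 21 bp away (score 4.28), whereas the nearest control H3K27ac summit was 35333 bp away. At 32819734, at the TAP1 and PSMB9 pair, a knockdown KAT7 summit (17.9) lay 6 bp from a knockdown H3K27ac summit. The control lists had KAT7 no closer than 11629 bp and H3K27ac no closer than 1976 bp.

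Summits that the hg19 map places at 4 class I or related genes were present in both H3K27ac lists. These genes were chosen after their values were seen, so they do not stand for all class I genes. HLA-C had a summit at 31239502 (score 23.1) after knockdown and at 31239494 (15.6) after control siRNA. HLA-B had one at 31324690 (7.57) after knockdown and at 31324927 (8.40) after control siRNA. MICA, a stress-induced ligand of the NKG2D receptor, had one at 31368108 (23.8) after knockdown and at 31368014 (12.6) after control siRNA. Its relative MICB had one at 31462795 (15.3) after knockdown and at 31462909 (9.37) after control siRNA. All 4 pairs lay within 500 bp, between 8 and 237 bp apart. KAT7 stood near HLA-C in both lists, at 31239837 (7.76) after knockdown and 31239483 (1.31) after control siRNA. That control score is the lower of the 2 frequent values of its list. Near HLA-B it stood after knockdown only, at 31324952 (2.24), with the nearest control KAT7 summit 32733 bp away. This HLA-B summit ranked last, 54 of 54, among the knockdown KAT7 summits of the region. HLA class I genes share long stretches of near-identical sequence, so part of the reads there could have been placed at the wrong copy.

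H3K27ac summits gathered in clusters, joined here where neighbours lay at most 10 kb apart. There were 85 clusters after knockdown, of which 45 held 1 summit, and 75 after control siRNA, of which 33 did. The largest knockdown cluster ran from 30704971 to 30796096, with 39 summits in 91.1 kb, and ranked 2 among 17974 clusters of the genome by number of summits. FLOT1, a lipid raft protein, lies at its start on the hg19 map. After control siRNA the stretch held 28 summits, parted into a cluster of 19 that ranked 24 of 15496 and another of 9. Between these 2, from 30753954 to 30774427, the knockdown list held only summits with scores of 2.51 to 4.13. The single knockdown cluster, and with it its rank, rests on these low-scoring calls and the 10 kb rule. Leading summits were close in position: 30737980 (83.0) after knockdown and 30736763 (47.7) after control siRNA, 30717298 (46.1) after knockdown and 30717071 (36.3) after control siRNA, and 30781699 (51.9) after knockdown and 30781938 (30.7) after control siRNA. The stretch held 1 KAT7 summit after knockdown and 4 after control siRNA. Counts this small in 91.1 kb do not set it apart from the MHC as a whole. KAT7 density there was 11.02 per Mb after knockdown and 36.1 after control siRNA.

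**Figure D5:**
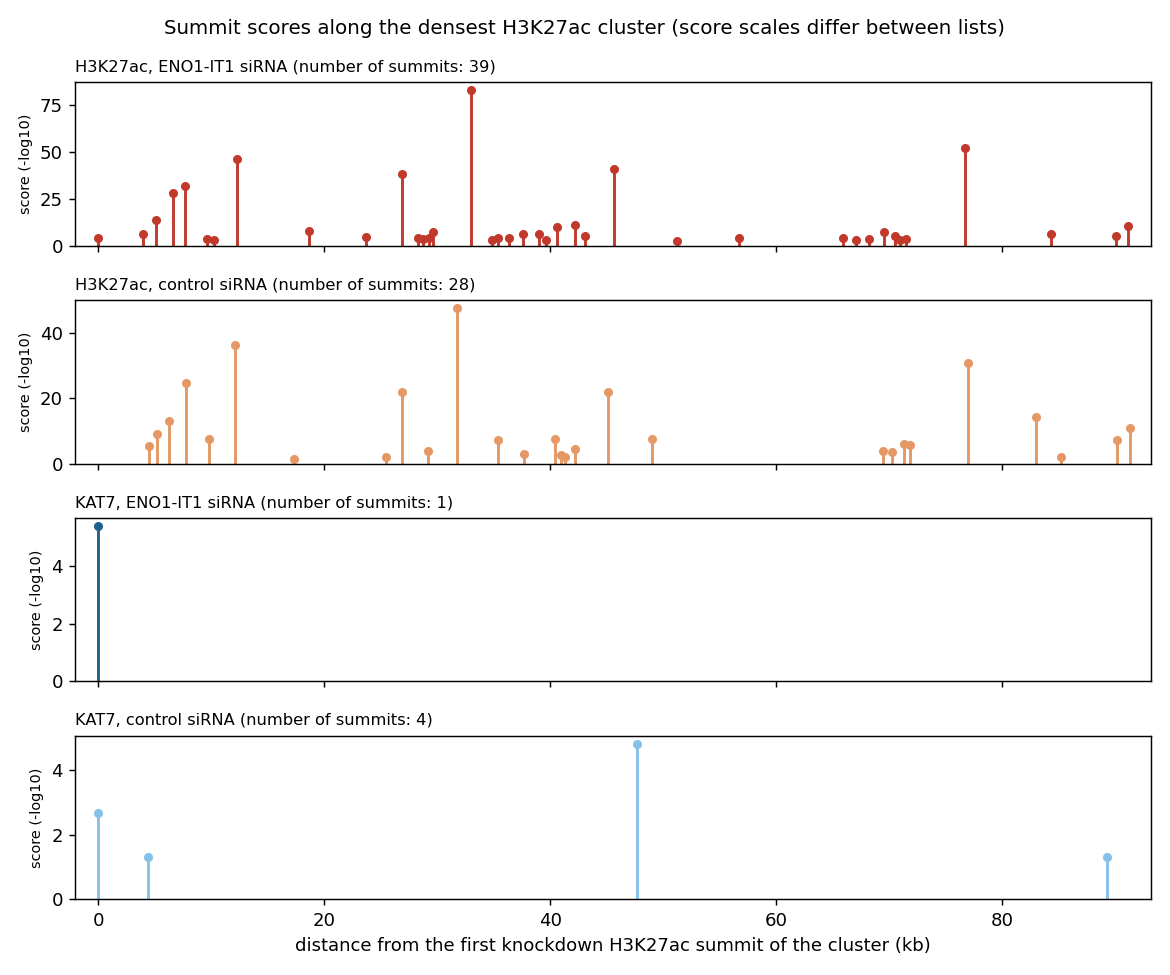
Score of each summit (y axis, −log10, own scale in each panel) against distance from the first knockdown H3K27ac summit of the largest cluster (x axis, kb), 1 panel per list. The tallest H3K27ac summits stand at near positions in both conditions (39 summits after knockdown, 28 after control siRNA), and KAT7 has 1 summit after knockdown and 4 after control siRNA.

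The next cluster, in class III, lay around LSM2 and the heat shock genes HSPA1A and HSPA1B, with 11 H3K27ac summits from 31774601 to 31805337 after knockdown and 12 from 31774313 to 31802863 after control siRNA. It held 6 KAT7 summits after knockdown, between 31783539 and 31797157 with scores of 2.39 to 10.2, and 1 after control siRNA, at 31783987 (3.76). HSPA1A and HSPA1B are near-identical copies, and the 6 summits fall as 3 at each, so reads of these genes cannot be told apart with certainty. Another class III cluster, around AGPAT1, RNF5 and PBX2, held 9 H3K27ac summits after knockdown and 8 after control siRNA, with 1 KAT7 summit in each condition. The highest knockdown H3K27ac summit of class III stood at 31763601 (46.4), 1 bp from a control summit.

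Away from class II, the KAT7 summits found in both conditions included 28909415 (45.5) and 28565159 (22.1) after knockdown, both in the extended class I flank. The highest knockdown KAT7 summits without a control counterpart were 33387925 (28.4) and 28746772 (19.1). The highest control KAT7 summits without a knockdown counterpart, after the one in class II, were 29688063 (22.7) and 33355477 (13.9). Median scores in the MHC were close to those of the rest of the genome within each list: 8.11 against 8.02 for knockdown H3K27ac, 7.86 against 7.08 for control H3K27ac, 8.07 against 7.67 for knockdown KAT7 and 2.68 against 2.68 for control KAT7.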

How the data were processed

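Per the submitters' processing notes, the tools were Bowtie and MACS2 and the build was hg19. Their versions and options, and the library the peaks were called against, are not given in the sources. The deposited files list 1 summit per peak with the authors' score, a −log10 p or q value; which of them is not stated. Scores grow with sequencing depth, which is unknown. Each group held 1 library, grouped by title.

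Summits on chromosome 6 from 28.5 to 33.4 Mb were taken by their 1-based position. A summit was shared if the other list had one within 500 bp, in all 4 lists within 50 bp, near input within 1000 bp, and clustered within 10 kb. Intervals are exact 95% Clopper-Pearson, Poisson or conditional binomial intervals. Individual summits were named if they were the highest of a stretch, among the 5 highest shared or unshared of a list, or in class II with a score of at least 10; others named were chosen after their values were seen. The members and lists were chosen with earlier results of these data known. The overlap code was tested on simulated data. No hg19 genome or annotation was used, so no sequence of a summit is shown. Promoters and gene order came from RefSeq tables of GRCh38.p14, and the motifs were applied to them after the data were seen. The lists name 25 chromosomes and no alternative haplotype of the MHC. The alternatives tried were sharing within 100, 250 or 1000 bp, only scores from 3 or from 10 upward, lists of equal length, summits within 500 bp merged, summits near input left out, other bounds of class II and, chosen after seeing the data, leaving out sites present in all 4 lists. Python 3.11.15, numpy 2.4.6, scipy 1.17.1, pandas 2.3.3 and matplotlib 3.10.9 were used.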

Additional observations from a re-analysis of the deposited data

How the results depend on the processing

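No paired analysis was possible because each group held 1 library, and for the same reason no replicate could be left out. Of 118 alternative values of 16 results, 96 moved by less than the counting interval. The ratio of knockdown to control KAT7 summits in the MHC turned from lower to higher in 3 alternatives. It was 1.16 (0.759 to 1.78) with a score of at least 3 and 1.91 (0.880 to 4.38) with a score of at least 10. Both of these intervals include equal counts. With lists of equal length it was 1.59 (1.02 to 2.52). These settings by construction remove mainly low-scoring control summits. Shares moved with the distance, as a wider distance can only add counterparts. Knockdown H3K27ac with control H3K27ac was 31.0, 48.7 and 76.1% at 100, 250 and 1000 bp, and control with knockdown 35.9, 56.4 and 88.2%. Knockdown KAT7 with knockdown H3K27ac was 20.4% at 100 bp, 29.6% at 250 bp and 33.3% at a score of at least 10. Control KAT7 with control H3K27ac was 11.3% at 1000 bp, 11.4% at a score of at least 3 and 18.2% at 10. Knockdown KAT7 with control KAT7 was 11.8% at a score of at least 3 and 9.26% with lists of equal length; control KAT7 with knockdown KAT7 was 13.6% at 3, 36.4% at 10 and 14.7% with equal length. The density of the MHC over the rest of the genome at a score of at least 10 was 5.38 for control H3K27ac and 2.01 for control KAT7, which turned from below to above equal density; the cause was not tested. The ratios of class II to class I/III density stayed within their intervals under the alternatives run, with KAT7 after knockdown at 1.39 at a score of at least 10, including, chosen after seeing the data, the one without sites in all 4 lists. Few class II summits limit every count there.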
